A study of Mus musculus with 10 samples.

Results

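Injured and transitional epithelium is represented here by 10 genes taken as markers of injured, intermediate, basal or progenitor epithelial cells, out of 45786 genes in the deposited tables. They were found in the tables by their symbols, and the choice was made with earlier results of these data known. They are the simple-epithelium keratins Krt8, Krt18 and Krt7, the tight-junction protein gene Cldn4, the 14-3-3 sigma gene Sfn, the growth factor genes Areg and Hbegf, the basal-cell genes Krt5 and Trp63, and the progenitor transcription factor gene Sox9. All 10 were found once each in both the count and the FPKM table. Their levels were followed in whole-lung cell suspensions of C57BL/6J mice, an inbred laboratory strain. The irradiated group had received 12.5 Gy of γ-radiation to the whole thorax, and the age-matched control group 0 Gy. Each group was sampled at 24 hours and at 1, 4, 12 and 32 weeks, with 1 library for each time and treatment and so 5 irradiated and 5 control libraries in all. Each library held RNA pooled from 3 mice, so animals within a pool were not measured apart and no time had a second pool of either treatment.

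When alveoli are injured, type 2 cells, the surfactant-making stem cells of the alveolus, can divide and flatten into type 1 cells, which carry gas exchange. Between these states cells pass through an intermediate that is known from mouse lung injury models for strong Krt8, with Cldn4, Sfn and p53 target genes. Keratins 8, 18 and 7 also belong to resting simple epithelia, including airway and mesothelium, so in bulk RNA their level reports all of these cells together. Krt5 and Trp63 mark basal cells, the stem cells of the large airways, which can appear in the alveolar region after severe injury. In bulk samples, fewer cells of a type and less RNA per cell cannot be told apart.

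Libraries held 8665409 fragments in the shallowest, the 12-week control, to 17440799 in the deepest, the 4-week irradiated pool. Defining markers of alveolar type 2, type 1, club, ciliated, endothelial and macrophage cells were present in every pool. One library stood apart in genes of other tissues. The 32-week control pool held 117 fragments of the thymic epithelium gene Prss16, 36 of the cartilage gene Acan and 47 of the basal keratin gene Krt17. The other 9 pools held at most 19, 4 and 12 fragments of these genes. Summed CPM of the 3 thymic epithelium markers was 0.0837 to 1.39 in irradiated pools and 0.33 to 7.03 in control pools, with the highest value in that library. The keratin tests at 32 weeks and over the 5 times are also given without it.

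Levels are CPM, counts per 1000000 after TMM scaling between libraries, or FPKM, which is also divided by gene length. FPKM is used to rank genes, for keratin shares and for ratios between keratins. Summed markers and ratios to such sums are in CPM, so they carry gene length and weigh abundant genes most. FPKM keep the deposited scale, on which library totals ran from 9983710 to 13509769 (the 32-week irradiated pool highest, the 32-week control pool lowest), so differences between pools are given in CPM. Ordered by median FPKM over the 10 pools, Krt8 stood at 53.4, Krt18 at 31.5 and Krt7 at 21.6 FPKM. Sfn followed at 4.98, Areg at 2.94 and Hbegf at 1.52 FPKM. These first 6 genes kept that order in 10 of 10 pools. The remaining levels were far lower, with Cldn4 at 0.214, Sox9 at 0.122, Krt5 at 0.107 and Trp63 at 0.00345 FPKM. Neighbours among those did not separate, since Cldn4 exceeded Sox9 in 7 of 10 pools, Sox9 exceeded Krt5 in 6 and Krt5 exceeded Trp63 in 8. The filter on low counts was passed by 6 of the 10 genes, and Cldn4, Krt5, Trp63 and Sox9 were too low to be tested.

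**Figure D1:**
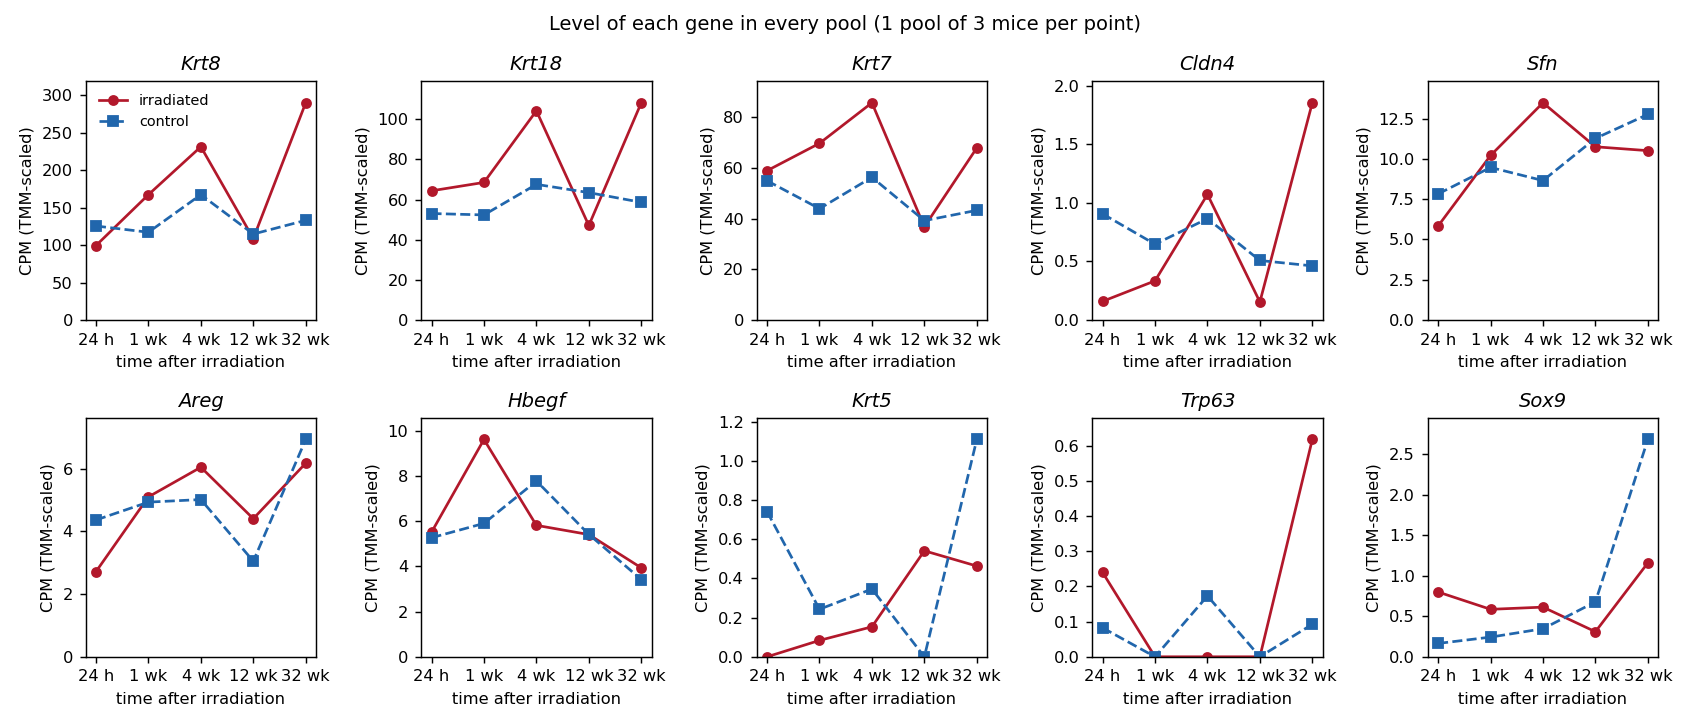
Level of the 10 genes in each pool, in CPM after TMM scaling, at the 5 times (horizontal axis), with irradiated pools as circles on a solid line and control pools as squares on a dashed line. Each point is 1 pool of 3 mice; Krt8 reached 290 CPM in the 32-week irradiated pool, against 133 CPM in the 32-week control pool, and irradiated and control values overlapped for all 10 genes.

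Krt8, the type II keratin of simple epithelium, was higher than its same-time control at 1, 4 and 32 weeks. It stood at 99.4, 167, 231, 109 and 290 CPM in irradiated pools from 24 hours to 32 weeks, against 125, 117, 167, 115 and 133 CPM in the control pools of those times. The irradiated pools of 4 and 32 weeks lay above all 5 controls, and those of 24 hours and 12 weeks below all 5, so the irradiated values enclosed the control values. The 1-week irradiated pool counted as above all 5, but it equalled the 4-week control to 4 digits, at 167.2 CPM. The 32-week irradiated pool was 2.18-fold above its control (counting interval 2.07 to 2.29), the 4-week pool 1.38-fold (1.32 to 1.45) and the 1-week pool 1.43-fold (1.34 to 1.52). The 24-hour pool stood at 0.793 of its control (0.738 to 0.85) and the 12-week pool at 0.947 (0.872 to 1.03). These intervals are exact 95% intervals that cover counting error only, and a ratio of 1 pool to 1 pool has no test.

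Tests set each irradiated pool against the 5 controls, whose spread over ages stands for the missing replicates. Krt8 rose in the 32-week irradiated pool by a log2 difference of 1.14 ± 0.20 (SE; edgeR adjusted p = 0.0411). That was the only one of the 6 genes tested to pass at any time, and at 32 weeks 0.826% of all 15625 genes passed and 0.576% passed as higher. The call was lost when libraries were scaled by their totals alone (1.04, edgeR adjusted p = 0.0991). It was also lost without the control pool of 24 hours (edgeR adjusted p = 0.0732), 1 week (0.0984), 12 weeks (0.0567) or 32 weeks (0.0527), while the log2 difference stayed between 1.09 and 1.24 whichever control was left out. The library that stood apart is the last of those controls. At 4 weeks the Krt8 difference was 0.81 ± 0.20 and did not pass (edgeR adjusted p = 0.439).

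Krt18, the type I keratin that pairs with keratin 8 in filaments, was above its same-time control in 4 of 5 pairs. It stood at 64.4, 68.5, 104, 47.1 and 108 CPM in irradiated pools from 24 hours to 32 weeks, against 53.1, 52.4, 67.6, 63.5 and 58.6 CPM in control pools. The irradiated pools of 1, 4 and 32 weeks lay above all 5 controls and that of 12 weeks below all 5. At 1 week the margin was narrow, with 68.5 CPM against 67.6 CPM in the highest control. The ratio to the same-time control was 1.84 at 32 weeks (1.70 to 1.99), 1.54 at 4 weeks (1.43 to 1.66) and 0.742 at 12 weeks (0.659 to 0.835). Against the 5 controls the log2 difference at 32 weeks was 0.87 ± 0.18 (edgeR adjusted p = 0.0618). That missed the threshold, but it passed in 4 of 11 alternatives, among them DESeq2 (adjusted p = 0.00614), and adjusted p over all alternatives ran from 0.00614 to 0.133. Without the 32-week control it was 0.87 ± 0.19 (edgeR adjusted p = 0.0739). The 4-week difference of 0.82 ± 0.18 did not pass (edgeR adjusted p = 0.365).

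Krt7, a type II keratin of glandular and lung epithelium and of mesothelium, was also above its control in 4 of 5 pairs. It stood at 58.9, 69.7, 85.7, 36.8 and 67.9 CPM in irradiated pools from 24 hours to 32 weeks, against 55.0, 44.0, 56.3, 39.2 and 43.3 CPM in control pools. All irradiated pools but that of 12 weeks lay above all 5 controls, and the 12-week pool lay just below them. The ratio to the same-time control was 1.59 at 1 week (1.44 to 1.76), 1.52 at 4 weeks (1.40 to 1.66) and 1.57 at 32 weeks (1.42 to 1.72). Its difference was 0.85 ± 0.22 on the log2 scale at 4 weeks (edgeR adjusted p = 0.444) and 0.51 ± 0.22 at 32 weeks (edgeR adjusted p = 0.293), and neither passed. Without the 32-week control the 32-week difference was 0.48 ± 0.23 (edgeR adjusted p = 0.351). At 1 week it was 0.55 ± 0.22 (edgeR adjusted p = 0.495).

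The partner keratins had a similar mean proportion to each other in irradiated and control pools, while single pairs differed in either direction. Krt8 FPKM over Krt18 FPKM was 1.36, 2.14, 1.94, 2.02 and 2.34 in irradiated pools from 24 hours to 32 weeks, against 2.07, 1.96, 2.16, 1.58 and 1.99 in control pools. The mean ratio was 1.96 ± 0.369 in irradiated pools and 1.95 ± 0.221 in control pools (SD, n = 5 each, over times). The 24-hour irradiated pool had the lowest ratio, since Krt8 was below and Krt18 above the same-time control there. On mouse build GRCm38, Krt8 (ENSMUSG00000049382) lies at chr15:101996698-102004482 on the minus strand and Krt18 (ENSMUSG00000023043) at chr15:102028180-102032027 on the plus strand, with starts 23.7 kb apart. Krt7 (ENSMUSG00000023039) lies at chr15:101411043-101430313 on the plus strand. Krt8 overlaps the gene Gm36026 and Krt7 the gene Gm671 on the opposite strand. The library kit does not mark strand, so fragments of these pairs cannot be told apart, and Krt8 also has 1 named pseudogene that could share fragments.

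The start regions of these 3 keratin genes are shown because only these genes counted as above all 5 controls at 1, 4 and 32 weeks alike. At 1 week Krt8 equalled the highest control to 4 digits. Each sequence is the RefSeq promoter window on GRCm38.p6, from 250 bases before the start to 50 after it, written 5′ to 3′ on the gene's strand, with motif matches in capitals. The windows lie at chr15:102004293-102004592 (minus strand) for Krt8, chr15:102027966-102028265 (plus strand) for Krt18 and chr15:101412153-101412452 (plus strand) for Krt7. These RefSeq starts differ from the ends of the gene spans given above, which come from GENCODE M21. The Krt7 window lies wholly inside its GENCODE span.
Krt8: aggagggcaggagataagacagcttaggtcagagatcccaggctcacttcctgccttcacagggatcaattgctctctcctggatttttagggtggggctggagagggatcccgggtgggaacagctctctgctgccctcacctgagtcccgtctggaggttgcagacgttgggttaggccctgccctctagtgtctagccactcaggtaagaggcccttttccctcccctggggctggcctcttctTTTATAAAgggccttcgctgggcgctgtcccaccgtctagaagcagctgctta
Krt18: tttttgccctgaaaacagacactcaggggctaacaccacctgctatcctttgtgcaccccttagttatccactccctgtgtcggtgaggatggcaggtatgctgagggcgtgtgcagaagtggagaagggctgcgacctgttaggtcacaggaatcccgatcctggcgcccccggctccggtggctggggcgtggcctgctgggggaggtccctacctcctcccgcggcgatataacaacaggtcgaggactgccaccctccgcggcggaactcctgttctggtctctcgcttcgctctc
Krt7: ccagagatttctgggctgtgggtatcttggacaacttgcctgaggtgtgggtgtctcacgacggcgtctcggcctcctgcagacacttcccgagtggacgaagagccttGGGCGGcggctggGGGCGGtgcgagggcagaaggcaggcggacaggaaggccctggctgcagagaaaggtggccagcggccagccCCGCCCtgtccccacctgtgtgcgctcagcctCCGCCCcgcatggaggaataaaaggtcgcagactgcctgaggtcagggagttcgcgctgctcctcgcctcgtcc

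Motifs were searched on both strands by their letters: AP-1 as TGANTCA, the GC box as GGGCGG, the TEAD site as GGAATG and the TATA box as TATAAA. A p53 half-site was searched by letters too, as a degenerate pattern that allows more than 1 base at most positions. The Krt8 window held 2 overlapping TATAAA matches, one on each strand, spanning bases -3 to 5 from the start. The Krt7 window held 4 GC boxes, and the Krt18 window held none of the 5 motifs. Among 32851 promoters of the table, TATAAA occurred in 13.6% and the GC box in 35.7%. Promoter entries were matched for 7 of the 10 genes, with 2 AP-1 matches in Cldn4 and 1 p53 half-site in Krt5, against 7.81% and 8.36% of all promoters. GC content was 58.0% for Krt8, 61.3% for Krt18 and 66.3% for Krt7, with a median of 52.7% over all promoters. A match describes letters, not binding.

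Cldn4, which seals epithelial junctions and is a marker of the alveolar intermediate, was close to the detection limit. It had 2, 4, 20, 2 and 25 fragments in irradiated pools from 24 hours to 32 weeks, against 14, 10, 14, 4 and 9 fragments in control pools. The irradiated pools of 4 and 32 weeks lay above all 5 controls in CPM and those of 24 hours, 1 week and 12 weeks below all 5. Its ratio to the same-time control was 3.86 at 32 weeks (1.74 to 9.39) and 0.159 at 24 hours (0.0176 to 0.694). Cldn4 (ENSMUSG00000047501, chr5:134945119-134946934, minus strand) was not tested, and among 25 claudin genes it ranked 12 by median FPKM.

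Sfn, the 14-3-3 protein that is a p53 target and holds cells before mitosis, did not separate the groups. It stood at 5.84, 10.2, 13.48, 10.8 and 10.5 CPM in irradiated pools from 24 hours to 32 weeks, against 7.83, 9.47, 8.65, 11.3 and 12.8 CPM in control pools. The 24-hour irradiated pool lay below all 5 controls and the 4-week pool above all 5, with ratios to the same-time control of 0.747 (0.555 to 1.00) and 1.56 (1.26 to 1.94). Its log2 difference was -0.77 ± 0.39 at 24 hours (edgeR adjusted p = 0.485) and 0.43 ± 0.34 at 4 weeks (edgeR adjusted p = 0.912). Sfn (ENSMUSG00000047281) lies at chr4:133600556-133602168 on the minus strand.

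Areg and Hbegf encode ligands of the epidermal growth factor receptor that are released from the cell surface during tissue repair. Areg, which immune cells make as well as epithelium, stood at 2.72, 5.11, 6.05, 4.41 and 6.18 CPM in irradiated pools from 24 hours to 32 weeks, against 4.37, 4.94, 5.02, 3.05 and 6.94 CPM in control pools. Only its 24-hour irradiated pool left the control range, and it lay below all 5 controls at 0.626 of its same-time control (0.407 to 0.95). The log2 difference there was -0.83 ± 0.52 (edgeR adjusted p = 0.596). Summed CPM of 5 group 2 innate lymphoid cell markers was 47.7 to 102 in irradiated pools and 70.4 to 101 in control pools, with the lowest value in the 24-hour irradiated pool. Summed CPM of 4 mast cell and basophil markers was 5.61 to 89.2 in irradiated pools and 10.2 to 29.7 in control pools. Of these markers 1 passed, the mast cell protease gene Cpa3, which rose at 32 weeks by 2.82 ± 0.35 on the log2 scale (edgeR adjusted p = 0.0152). Summed CPM of 9 immediate early genes, which tissue dissociation is known to raise, was 753 to 1324 in irradiated pools and 906 to 1618 in control pools. The part of these cells and genes in Areg and Hbegf was not tested. Areg (ENSMUSG00000029378) lies at chr5:91139599-91148432 on the plus strand.

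Hbegf stood at 5.52, 9.62, 5.82, 5.41 and 3.94 CPM in irradiated pools from 24 hours to 32 weeks, against 5.27, 5.91, 7.79, 5.42 and 3.42 CPM in control pools. The 1-week irradiated pool lay above all 5 controls, at 1.63-fold its same-time control (1.23 to 2.16), and the other 4 irradiated pools lay within the control range. Its log2 difference at 1 week was 0.79 ± 0.42 (edgeR adjusted p = 0.611). Hbegf (ENSMUSG00000024486) lies at chr18:36504927-36515805 on the minus strand.

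The basal-cell genes were at the detection limit in both groups. Krt5, the basal keratin, had 0, 1, 3, 7 and 6 fragments in irradiated pools from 24 hours to 32 weeks, against 11, 4, 6, 0 and 20 fragments in control pools. The counting interval of its ratio to the same-time control reached up to 0.445 at 24 hours and down to 0.965 at 12 weeks, so at 12 weeks the difference was within counting error. It was lower in the irradiated pool in 4 of 5 pairs, and irradiated and control values overlapped. Its 20 fragments in the 32-week control came from the library that also held thymic epithelium and cartilage transcripts. Without that pair it was lower in the irradiated pool at 24 hours, 1 week and 4 weeks and higher at 12 weeks.

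Trp63, the basal-cell transcription factor gene of the p53 family, had 3, 0, 0, 0 and 8 fragments in irradiated pools from 24 hours to 32 weeks, against 1, 0, 3, 0 and 2 fragments in control pools. At 0 fragments its level could be up to 0.164 to 0.238 CPM in irradiated pools of this depth and 0.189 to 0.353 CPM in control pools. The 32-week ratio was 5.55 with a counting interval of 1.11 to 53.7. Krt5 (ENSMUSG00000061527) lies at chr15:101707070-101712898 on the minus strand and Trp63 (ENSMUSG00000022510) at chr16:25683763-25892102 on the plus strand. Each overlaps a gene on the other strand, so the few fragments cannot be assigned to strand.

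Sox9, the transcription factor gene of distal lung progenitors in the embryo and of cartilage, had 11, 7, 11, 4 and 16 fragments in irradiated pools from 24 hours to 32 weeks, against 3, 4, 5, 6 and 50 fragments in control pools. The 32-week control pool stood far above the other 9, at 2.68 CPM, and is the library with 36 fragments of Acan. The ratio to the same-time control was 4.09 at 24 hours (1.08 to 22.8) and 0.444 at 32 weeks (0.236 to 0.793). Sox9 was higher in the irradiated pool in 3 of 5 pairs, all 3 at or before 4 weeks, so without the 32-week pair it was higher in 3 of 4. Sox9 (ENSMUSG00000000567) lies at chr11:112782224-112787760 on the plus strand and was not tested. The part of cartilage or thymic tissue in its 32-week level was not tested.

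Of all 10 genes, 2 lay above all 5 controls at 24 hours, 4 at 1 week, 5 at 4 weeks, 0 at 12 weeks and 5 at 32 weeks. Below all 5 lay 4 at 24 hours, 1 at 1 week, 0 at 4 weeks, 4 at 12 weeks and 0 at 32 weeks. These counts take in the 4 untested genes of low count, such as Trp63 with 3 fragments at 24 hours and 8 at 32 weeks. Shares over all genes were taken only for genes that passed the filter, so the counts of all 10 have none beside them. Of the 6 tested genes, 4 lay above all 5 controls at 1 week, where 22.6% of all genes did, 4 at 4 weeks (19.1% of all genes) and 3 at 32 weeks (25.5%). Among the 4 at 1 week, Krt8 equalled the highest control to 4 digits and Krt18 was close to it. Below all 5 controls lay 0 of 6 at 1 week (18.8%), at 4 weeks (16.8%) and at 32 weeks (23.3%). At 24 hours 1 of 6 lay above (22.1%) and 3 below all 5 controls (21.2%). At 12 weeks 0 of 6 lay above (21.9%) and 3 below (21.5%). The median matched log2 fold of the 6 was -0.14 at 24 hours, 0.45 at 1 week, 0.54 at 4 weeks, -0.07 at 12 weeks and 0.42 at 32 weeks. Over all tested genes that median lay between 0.00 and 0.03 in size. Groups did not overlap for 2.63% of all genes, and for 0 of the 10. In all 5 pairs 0 of the 6 were higher in the irradiated pool (6.75% of all genes) and 0 lower (5.73%).

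**Figure D2:**
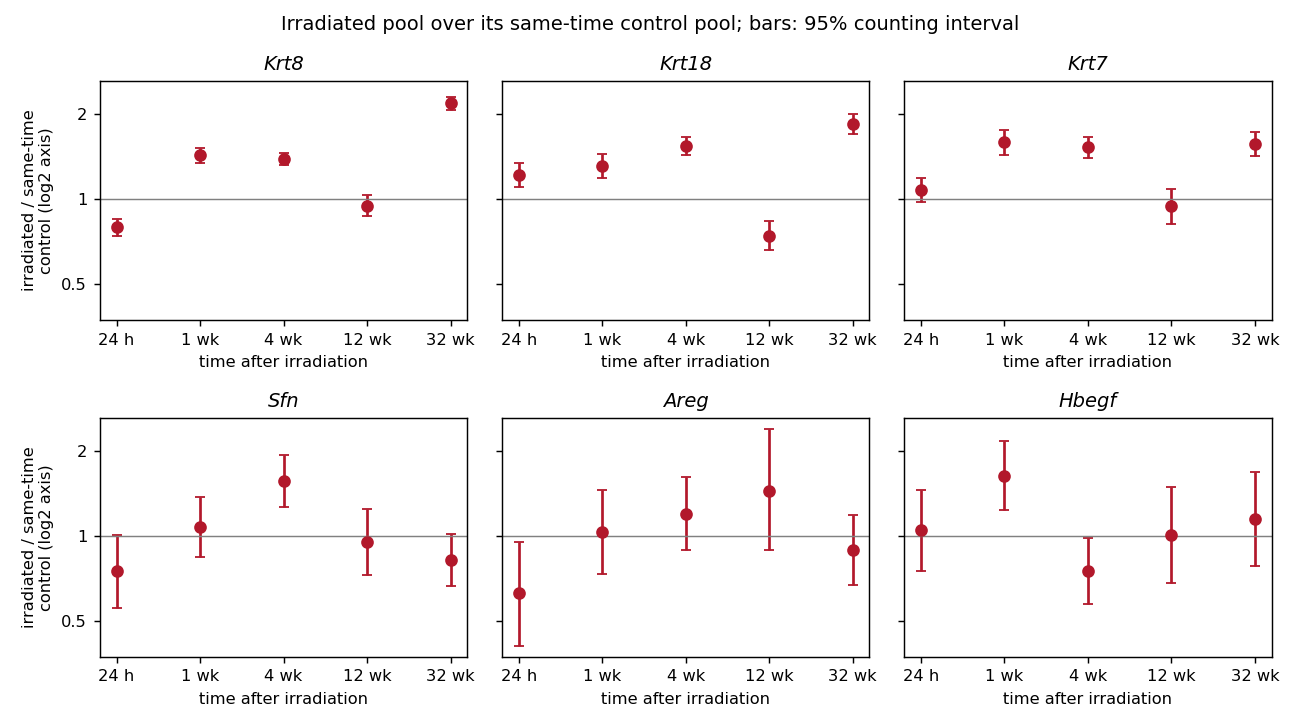
Ratio of each irradiated pool to its same-time control on a log axis, with exact 95% counting intervals, for the 6 tested genes at each of the 5 times (horizontal axis). Krt8, Krt18 and Krt7 lie above 1 at 1, 4 and 32 weeks and below 1 at 12 weeks, where the intervals of Krt8 and Krt7 include 1.

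Over the 5 times, with time as a block, 0 of the 6 genes passed, as did 0% of all genes. At an unadjusted p under 0.05 there was 1 of the 6, Krt7, where 11.1% of all genes lay, and DESeq2 and limma passed 0 of the 6. Krt7 differed by 0.39 ± 0.14 on the log2 scale (edgeR adjusted p = 0.379), Krt18 by 0.35 ± 0.18 (edgeR adjusted p = 0.499) and Krt8 by 0.34 ± 0.19 (edgeR adjusted p = 0.549). Without the 32-week pair, which holds the library that stood apart, the difference was 0.144 for Krt8, 0.219 for Krt18 and 0.323 for Krt7. Without the 12-week pair that of Krt18 was 0.544. Hbegf differed by 0.11 ± 0.23 (edgeR adjusted p = 0.901), and Areg and Sfn differed by under 0.01 in size with edgeR adjusted p = 0.997 each. Signs of Areg, Sfn and Hbegf changed with the setting. In irradiated pools Krt8 averaged 179 ± 81.2 CPM, against 131.5 ± 21.2 CPM in control pools (SD, n = 5 each). That spread takes in the different times as well as the pools.

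At the single times other than 32 weeks, 0 of the 6 passed. All genes passing made up 1.06% at 24 hours, 0.0192% at 1 week, 0.0576% at 4 weeks and 0% at 12 weeks. At an unadjusted p under 0.05 lay 0 of the 6 at 24 hours (11.9% of all genes), 1 at 1 week (9.5%), 3 at 4 weeks (7.2%), 0 at 12 weeks (10.7%) and 3 at 32 weeks (16.4%). The 3 were Krt8, Krt18 and Krt7 at both 4 and 32 weeks. DESeq2 passed 0 of the 6 at those other times too. For a change of the difference with time 0 of the 6 passed, as did 0% of all genes, with 0 of the 6 at an unadjusted p under 0.05 (7.01% of all genes) and 0 by DESeq2. The smallest p was that of Krt8, whose difference grew by 0.12 ± 0.06 on the log2 scale for each doubling of time (edgeR adjusted p = 0.73).

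Among related transitional-state genes, 10 of 12 could be tested, and 1 passed, Cdkn1a, the p53 target that encodes the cell-cycle inhibitor p21. Cdkn1a stood at 516, 274, 185, 110 and 82.7 CPM in irradiated pools from 24 hours to 32 weeks, against 74.8, 72.6, 58.8, 48.2 and 68.3 CPM in control pools. It rose by 3.00 ± 0.20 on the log2 scale at 24 hours (edgeR adjusted p = 0.000121), 2.09 ± 0.20 at 1 week (edgeR adjusted p = 0.0187) and 1.52 ± 0.21 at 4 weeks (edgeR adjusted p = 0.0498). It was highest at 24 hours, where Krt8 lay below all 5 controls. At 12 weeks its difference was 0.77 ± 0.22 (edgeR adjusted p = 0.288). At 32 weeks 0 of the 10 passed, and the smallest p was that of Krt19, the keratin of simple ducts and airways, with 0.56 ± 0.18 (edgeR adjusted p = 0.169). The list's median log2 difference at 32 weeks was 0.44, against -0.02 over all genes. Lists of general epithelial genes had medians as high, with 0.53 for pan-epithelial markers, 0.54 for other claudins and 0.48 for epithelial transcription factors. Medians of the airway lists were higher, with 1.31 for ciliated markers and 1.15 for club markers. Other keratins had -0.35 and alveolar type 2 markers -1.45.

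Keratins as a family moved unevenly. Of 50 other keratin genes 8 could be tested, and 1 passed, Krt79, which was lower at 4 weeks by a log2 difference of -3.41 ± 0.31 (edgeR adjusted p = 0.00316). Krt79, a type II keratin, stood at 149, 104, 12.6, 66.7 and 106 CPM in irradiated pools from 24 hours to 32 weeks, against 165.5, 145, 108, 115 and 134 CPM in control pools. Which lung cells held Krt79, epithelial or other, was not tested. At the 4-week fall of Krt79, Krt8, Krt18 and Krt7 stood above all 5 controls. In FPKM, Krt19 was the most abundant keratin with a median of 226 over all pools, followed by Krt8, Krt79 with 39.1, Krt18 and Krt7. Krt8 made up 9.65% to 26.1% of keratin FPKM in irradiated pools and 12.5% to 19.4% in control pools. Krt23, a type I keratin, passed at no time, with log2 differences of 1.05 ± 0.23 at 24 hours (edgeR adjusted p = 0.0762), 1.23 ± 0.23 at 1 week (0.167), -1.46 ± 0.32 at 12 weeks (0.194) and -1.15 ± 0.31 at 32 weeks (0.101).

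**Figure D3:**
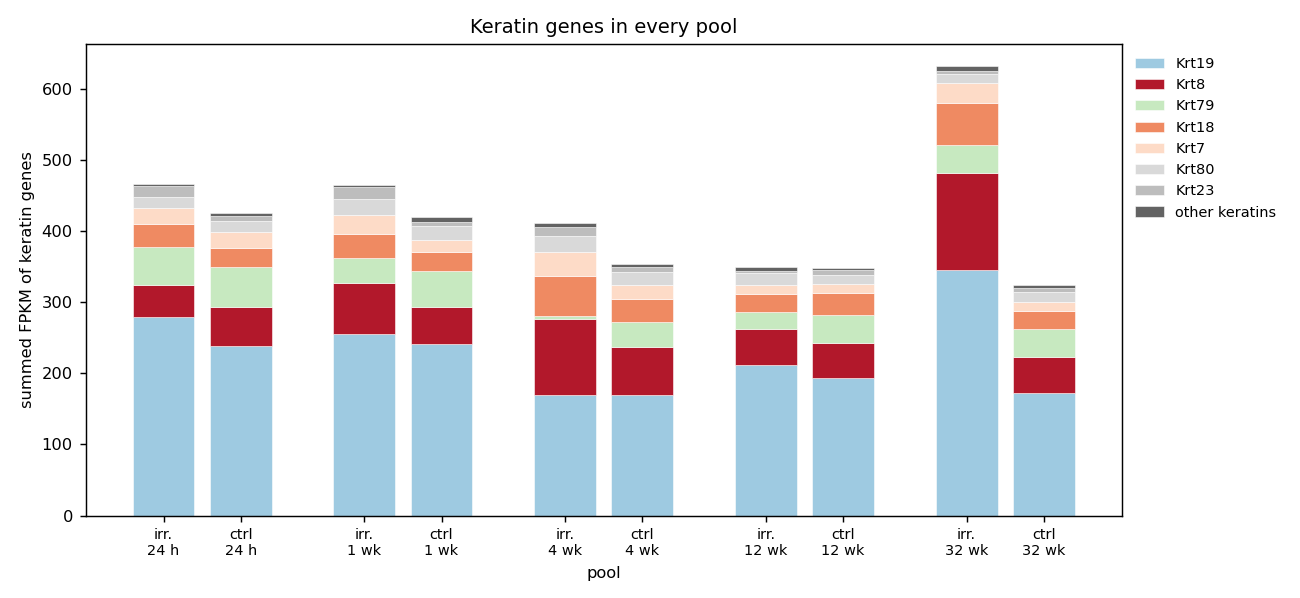
Summed FPKM of keratin genes, 1 stacked bar for each pool, irradiated left of control at each of the 5 times, with the 7 most abundant genes as segments and the rest together. Bar heights carry the deposited scale, so shares are read within a bar; Krt8 took 26.1% of keratin FPKM in the 4-week irradiated pool, against 19.4% in the 4-week control pool, and Krt79 took 1.12% in the 4-week irradiated pool, against 9.85% in the 4-week control pool.

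Other related lists gave 0 genes past the threshold in any comparison: 3 of 7 basal-cell genes, 7 of 11 EGF family genes, 6 of 6 14-3-3 genes, 11 of 11 epithelial transcription factor genes and 10 of 24 other claudin genes could be tested. The smallest adjusted p among them was that of Cldn18, the alveolar claudin gene, whose difference at 32 weeks was -1.19 ± 0.26 (edgeR adjusted p = 0.065). At earlier times Cldn18 differed by 0.83 ± 0.22 at 24 hours (edgeR adjusted p = 0.146), 1.03 ± 0.22 at 1 week (0.189) and -1.31 ± 0.26 at 12 weeks (0.185). Nrg1, a ligand of ERBB3 and ERBB4, stood at 0.48, 0.669, 1.99, 2.17 and 3.79 CPM in irradiated pools from 24 hours to 32 weeks, against 0.659, 0.971, 0.433, 0.593 and 0.74 CPM in control pools, and its difference at 32 weeks was 2.46 ± 0.54 (edgeR adjusted p = 0.065). Itgb4, the hemidesmosome integrin gene of basal and airway cells, differed by 1.44 ± 0.47 at 32 weeks (edgeR adjusted p = 0.168). Elf3, an epithelial transcription factor gene, differed by 1.14 ± 0.32 at 4 weeks (edgeR adjusted p = 0.477). Nkx2-1, which maintains lung epithelial identity, differed by 0.91 ± 0.36 at 24 hours (edgeR adjusted p = 0.347), -1.83 ± 0.48 at 12 weeks (0.252) and -1.12 ± 0.44 at 32 weeks (0.248).

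Markers of the epithelial cell types moved in different directions at the times when the keratins were high. Summed CPM of 7 pan-epithelial markers was 618, 730, 839, 536 and 832 in irradiated pools from 24 hours to 32 weeks, against 579, 516, 650, 638 and 569 in control pools. Like Krt8, that sum was high in the irradiated pools of 1, 4 and 32 weeks and low at 12 weeks. Per unit of it, Krt8 CPM was 0.161, 0.229, 0.276, 0.203 and 0.348 in irradiated pools from 24 hours to 32 weeks, against 0.217, 0.227, 0.257, 0.18 and 0.234 in control pools. So only the 4-week and 32-week irradiated pools exceeded all 5 controls on this ratio, which has no test. The same ratio at 32 weeks was 0.130 for Krt18, above the controls (0.0917 to 0.104). It was 0.0816 for Krt7, within the controls (0.0615 to 0.0950), and 0.0126 for Sfn, below them (0.0133 to 0.0225). At 4 weeks that of Krt7 was 0.102, above all 5. Epcam, the pan-epithelial adhesion gene of the list, differed by -0.03 ± 0.20 on the log2 scale at 32 weeks (edgeR adjusted p = 0.968), and Cdh1, the E-cadherin gene, by 0.87 ± 0.21 (edgeR adjusted p = 0.0824).

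Summed CPM of 6 ciliated-cell markers was 73.4, 147, 309, 136 and 392 in irradiated pools from 24 hours to 32 weeks, against 107, 108, 239, 161 and 201 in control pools. The order of the 5 irradiated pools on this sum, with 32 weeks highest and 24 hours lowest, was also their order in Krt8. Per unit of it, Krt8 was 1.35, 1.14, 0.748, 0.799 and 0.738 in irradiated pools, against 1.17, 1.08, 0.699, 0.715 and 0.663 in control pools. This ratio was higher in the irradiated pool in 5 of 5 pairs, and it was lower at 4, 12 and 32 weeks than at 24 hours and 1 week in both groups. It has no test. Of the 6 ciliated markers 1 passed at any time, the axonemal dynein gene Dnah9, which fell at 24 hours by 2.47 ± 0.49 on the log2 scale (edgeR adjusted p = 0.0471). Tekt1, a cilium structural gene, differed by 1.44 ± 0.34 at 32 weeks (edgeR adjusted p = 0.0757).

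Alveolar type 2 markers were low in the irradiated pools of 12 and 32 weeks, while Krt8 was low at 12 weeks and high at 32 weeks. Summed CPM of 8 alveolar type 2 markers was 58153, 59578, 43669, 7790 and 8980 in irradiated pools from 24 hours to 32 weeks, against 42950, 29185, 27482, 35050 and 24096 in control pools. Sftpc, the type 2 surfactant protein gene, fell at 32 weeks by 2.02 ± 0.35 on the log2 scale (edgeR adjusted p = 0.0411), and Abca3, the surfactant lipid transporter gene, rose at 24 hours by 1.26 ± 0.19 (edgeR adjusted p = 0.0157). For each 1000 CPM of the type 2 sum, Krt8 was 1.71, 2.81, 5.29, 13.95 and 32.3 CPM in irradiated pools, against 2.92, 4.01, 6.08, 3.27 and 5.52 CPM in control pools. The irradiated pools of 12 and 32 weeks lay above all 5 controls on this ratio, and at 12 weeks this came with Krt8 itself below all 5. Summed CPM of 7 alveolar type 1 markers was 672, 737, 622, 230 and 333 in irradiated pools from 24 hours to 32 weeks, against 548, 392, 531, 389 and 342 in control pools, and their median log2 difference at 32 weeks was -0.10. Within that list Ager, a receptor gene of type 1 cells, differed by -1.25 ± 0.30 at 32 weeks (edgeR adjusted p = 0.0827) and Hopx, a type 1 cell regulator gene, by 0.52 ± 0.31 (edgeR adjusted p = 0.45).

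Summed CPM of 6 club-cell markers was 4390, 3870, 10437, 4112 and 19242 in irradiated pools from 24 hours to 32 weeks, against 4358, 4185, 13843, 8691 and 11904 in control pools. Summed CPM of 5 mesothelial markers was 270, 281, 204, 165 and 132 in irradiated pools, against 234, 165, 149, 119 and 104 in control pools. The mesothelial sum was higher in the irradiated pool in 5 of 5 pairs. At 32 weeks its genes were split. Msln (57.7 against 33.9 CPM in the same-time control), Upk1b and Lrrn4 were higher, and Upk3b (28.5 against 33.7 CPM) and Wt1 were lower. Their median log2 difference from the 5 controls there was -0.15. For each unit of the mesothelial sum Krt8 was 0.368, 0.595, 1.13, 0.659 and 2.20 in irradiated pools from 24 hours to 32 weeks, against 0.535, 0.712, 1.12, 0.961 and 1.28 in control pools. That ratio was lower in the irradiated pool at 24 hours, 1 week and 12 weeks, nearly equal at 4 weeks and higher at 32 weeks. No gene of the club, mesothelial, type 1, pan-epithelial or endothelial list passed at any time. Of 5 macrophage markers 1 passed, Marco, which rose at 24 hours by 1.52 ± 0.26 on the log2 scale (edgeR adjusted p = 0.027). Squamous markers summed to at most 1.00 CPM in irradiated pools and 0.952 CPM in control pools. The part of ciliated, club, mesothelial and alveolar cell content in the keratin differences was not tested.

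**Figure D4:**
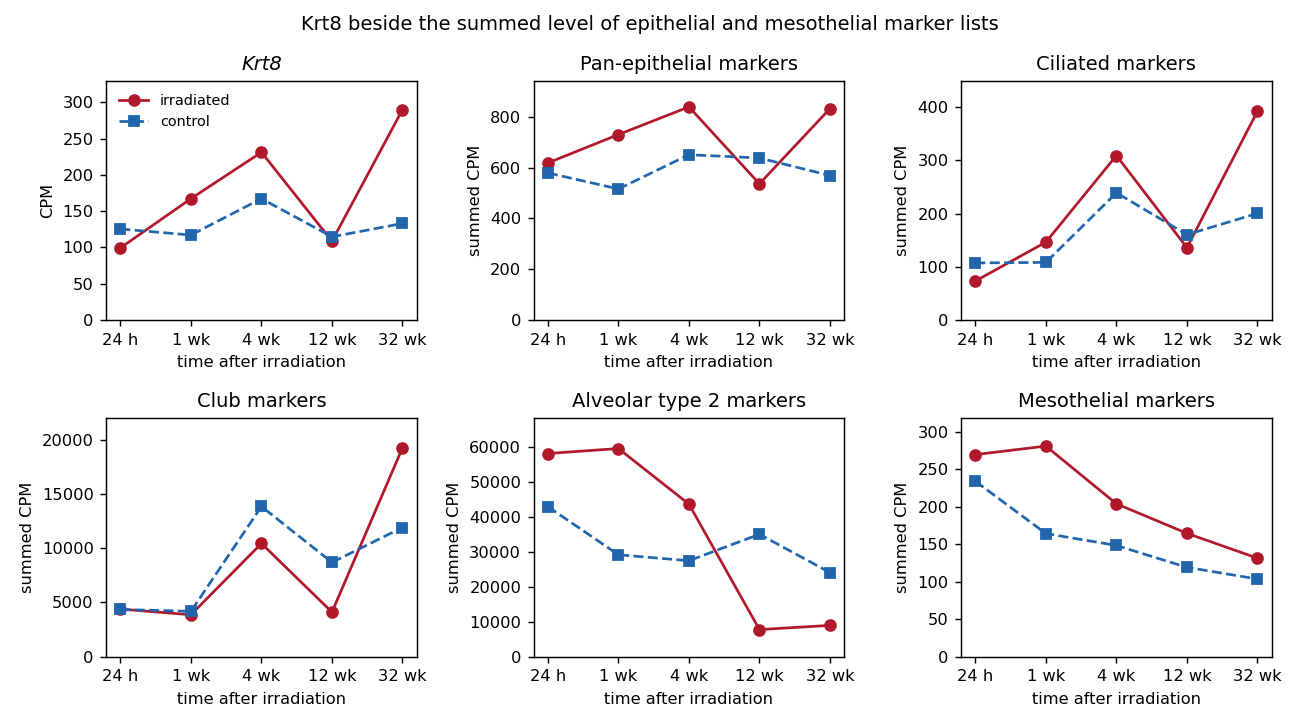
Krt8 CPM and summed CPM of the epithelial marker lists and of the mesothelial list in each pool at the 5 times (horizontal axis), with irradiated pools as circles on a solid line and control pools as squares on a dashed line. Krt8 and the ciliated sum were highest in the 32-week irradiated pool, at 290 and 392 CPM, where the alveolar type 2 sum was 8980 CPM, against 24096 CPM in the 32-week control pool.

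Across the 10 pools Krt8 and Krt18 had a Pearson r of 0.89 on log2 CPM, with 0.90 over the 5 irradiated and 0.61 over the 5 control pools. Krt18 and Krt7 had r = 0.80 (0.86 over irradiated and 0.05 over control pools), and Krt8 and Krt7 r = 0.73. Sfn and Areg had r = 0.65, with 0.91 over irradiated and 0.21 over control pools. Many other genes were closer: by r with Krt8, Krt18 ranked 99 and Krt7 737 among all tested genes. Krt7 ranked 272 by r with Krt18, and Areg 740 by r with Sfn. Hbegf stood apart, with r between -0.23 and 0.29 to the other 5 tested genes. Among all tested genes, the patterns most like that of Krt8 were those of Fam221a, Lrrc56 and Ankrd65, each with r = 0.97 over the 10 pools. Tmem125 and Morn4, each with r = 0.95, and 2010300C02Rik with 0.97 were most like Krt18, and Arhgef19, Lmo7 and Nr2f6, each with 0.96, most like Krt7. For Sfn they were Cry1, Zfp831 and Cspp1 (r = 0.93, 0.92 and 0.92), for Areg Dnmt1 and Mief2 (0.97 and 0.91), and for Hbegf 4931406P16Rik, Rap1gap2 and Apln (0.94, 0.93 and 0.93). These correlations describe 10 pools that share their time and treatment and were picked from 15625 genes, so they carry no p.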

How the data were processed

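RNA of pooled mouse lung suspensions was sequenced after Qiagen RNeasy PLUS extraction with Clontech ultralow and Illumina NexteraXT kits, per the labels' protocols. The submitters' processing notes name GRCm38.p4 with Cuffdiff, Cufflinks 2.0.2, STAR 2.4.2a and Trimmomatic 0.32. No annotation is named. The authors deposited expected counts, which lay at multiples of a library step of 0.577 to 1.39 (77.7% to 80.5% of low values within 0.05) and so had been scaled between libraries, and FPKM on the same scale. Division by the step gave fragments. The labels name no molecular identifiers, so intervals and floors of 3 counts cover counting error only.

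Symbols and coordinates came from GENCODE M21 (45137 identifiers matched, 649 not, at most 0.168% of counts). Table columns of no sample numbered 0, and 0 library pairs were identical. Counts were rounded, scaled by TMM and filtered (filterByExpr, minimum count 10), and 15625 genes were tested with edgeR 4.0.16 (2-sided quasi-likelihood, Benjamini-Hochberg, threshold 0.05): over the 5 times with time as a block (4 residual degrees of freedom), each irradiated pool against the 5 controls (4), and treatment by log2 days (3). The single-time test assumes that the lone pool varies like the controls and mixes their ages with treatment. Nothing in the labels says whether pools were separate experiments, so p-values measure only the spread between pools. The SE of an edgeR difference was derived as its size divided by the square root of the quasi-likelihood F statistic. Matched log2 folds used a prior count of 2. Alternatives were DESeq2 1.42.0, limma 3.58.1 on log2(FPKM + 1) and log2(FPKM + 0.1), total-count scaling, no filter, unscaled fragments, no time block, a prior count of 0.5 and leaving out pools. The steps were tested on simulated data. All 10 genes are named, and from each other list the genes passing with the smallest p or, where none passes, those of smallest p. The 3 likest genes of a tested gene are those of highest r, of which 1 is not reported here. Members and lists were chosen with earlier results of these data known.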

Additional observations from a re-analysis of the deposited data

Results flagged for a closer look

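Of 20 groups of 5 pools examined, 10 genes in irradiated and in control pools, 1 held a pool far from the others. How often such a pool arises by chance was not tested. Sox9 stood at 2.68 CPM in the 32-week control pool, and the gap to the next control took up 0.796 of the range of the controls. The same library held the most fragments of Acan, Krt17 and Prss16 of all 10, and their part in the Sox9 level was not tested.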

How the results depend on the processing

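Krt8 at 32 weeks kept its direction in all 11 alternatives and passed in 6, with adjusted p from 0.000295 to 0.0991. Its log2 difference was 1.04 under total-count scaling, which lost the call, and 1.09 to 1.24 when each control was left out in turn. The 6 tested genes passing at 32 weeks numbered 2 under DESeq2, limma on log2(FPKM + 1) and no filter, 0 under total-count scaling, and 0 to 2 with a control left out, against 1. Total counts in place of TMM moved the median matched log2 fold of all genes by -0.17 at 32 weeks and by under 0.1 in size elsewhere.

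Counts over all genes varied far more. Over the 5 times 0 genes passed, against 236 under DESeq2 and 1 with no filter. At 24 hours 165 passed, against 521 under DESeq2, 101 under limma on log2(FPKM + 1), 260 with no filter and 66 to 169 with a control left out. At 1 week 3 passed, against 227 under DESeq2, 31 with no filter, 0 under total-count scaling and 0 to 12. At 4 weeks 9 passed, against 69 under DESeq2, 17 and 16 under limma with pseudocounts of 0.1 and 1, 30 with no filter and 5 to 15. At 12 weeks 0 passed, against 218, 13, 7, 37 and 0 to 2 in the same order. At 32 weeks 129 passed, against 817 under DESeq2, 381 under limma on log2(FPKM + 1), 365 with no filter, 65 under total-count scaling and 8 to 299. For a change with time 0 passed, against 53 under DESeq2 and 1 with no filter. The cause was not tested.

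Near-zero differences over the 5 times changed sign. Sfn was at 0.10 and 0.11 under limma with pseudocounts of 1 and 0.1, 0.024 without the time block, and between -0.16 and 0.10 with a time left out. Areg was at -0.063 under total-count scaling, -0.002 under DESeq2, -0.006 on unscaled fragments, and between -0.12 and 0.16 with a time left out. Hbegf lay between -0.044 and 0.245 with a time left out. Of 150 alternatives to the matched folds, 135 moved by less than the spread between pools and 8 differed in sign. With 1 pool per time and treatment, no difference at one time has a replicate of its own, and Cldn4, Krt5, Trp63 and Sox9 had at most 50 fragments in any pool.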
